A study of Mus musculus with 6 samples.

Results

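The microRNA genes of the Mir297, Mir466, Mir467 and Mir669 families were followed in mouse fibroblast-like synoviocytes that had received Epas1 by adenovirus. The members were all genes named by a single symbol of these 4 families in the platform annotation, which gave 24 of the 22180 genes measured, represented by 43 probe sets. Where a gene had several probe sets (4 genes), the one shown was chosen by its highest mean level over the 6 arrays. This mean spans both groups, so among probe sets of one gene the choice can favour one that is higher in Ad-Epas1. In a RefSeq gene table of GRCm38.p6, 22 members lay inside the gene Sfmbt2, and 2, Mir466i and Mir467f, lay on other chromosomes, 13 and 11.

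The cells were grown from knee synovium of C57BL6 mice and used between passages 4 and 8. Both groups received adenovirus (multiplicity of infection 800, 2 h) and were collected after a further 24 h: Mock (3 arrays) got the empty virus and Ad-Epas1 (3 arrays) the one carrying Epas1. Epas1 encodes the oxygen-regulated transcription factor HIF-2alpha. Replicates are labelled biological, but separate animals or cultures are not mentioned, so the p-values below reflect only how these samples varied, which may be technical in part.

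MicroRNAs are cut from hairpins in longer transcripts by the Drosha and Dicer nucleases, are loaded into Argonaute proteins, and recognise messenger RNAs mainly through a seed near their 5′ end. Sfmbt2 encodes a Polycomb group protein with MBT domains. In rodents, one of its introns holds a large cluster of repeated microRNA hairpins that is read in the same direction as the gene, and in the mouse Sfmbt2 is known as an imprinted gene of the early embryo and the placenta. The copies in the cluster resemble each other closely. The array measured labelled total RNA, so a member's value may come from the host's intron, a hairpin or a processed RNA, and these cannot be told apart. A probe set named for 1 copy may also capture near-identical copies, and the probe sequences were not used here.

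The RefSeq sequence table of GRCm38.p6 held a mature sequence for 2 of the 24 members, both of them outside Sfmbt2. They are shown, 5′ to 3′ with the seed (bases 2 to 8) in capitals, because they carry family names without lying in the host.
miR-466i-3p: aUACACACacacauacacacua
miR-467f: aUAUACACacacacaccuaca
The first lies at chr13:17747552-17747573 on the plus strand and the second at chr11:69635419-69635439 on the minus strand. Of their bases, 86.4% and 85.7% were A or C, in repeats of CA. The seeds differ between them, and 0 of the other entries among 1679 mature sequences of the table share either. The other 22 members have no entry there, so a seed shared with them could not be seen.

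Epas1, the delivered gene, had a log2 expression value of 8.63 ± 0.11 (mean ± SD, n = 3) without the transgene and rose to 13.13 ± 0.02 (n = 3) with it. Array medians lay between 6.77 and 6.84. All 10 fibroblast markers were measured, with a median level between 11.48 and 12.01 on every array. Among them Pdgfrb (log2 fold change -1.20, adjusted p = 0.0044) and Col3a1 (-0.89, adjusted p = 0.029) fell in Ad-Epas1, Pdpn (0.73, adjusted p = 0.0041) and Prg4 (0.55, adjusted p = 0.028) rose, and the other 6 did not pass. The 12 macrophage markers had a median level between 11.4 and 11.7 on 5 arrays and 7.17 on Ad-Epas1 replicate 3, although the labels state less than 1% CD14+ cells. Their summed linear level was between 36214 and 45899 on those 5 arrays and 3013 on Ad-Epas1 replicate 3. Cd14 itself stood between 9.99 and 11.92 on those 5 arrays and at 8.62 on the other. Cd163, another macrophage marker, stood between 5.92 and 6.29 on all 6 arrays. The 3 measured trophoblast markers (Tpbpa, Elf5 and Hand1, of 5 listed) had medians between 5.41 and 7.03, the 3 embryonic stem cell markers (Pou5f1, Nanog and Zfp42) between 5.85 and 6.03, and the 5 endothelial markers between 6.25 and 6.64. Of 1394 olfactory and vomeronasal receptor genes, 95% had a mean below 6.62. Of the 24 members, 10 were above that level in Mock and 16 in Ad-Epas1, though probe sets differ in their response and this is no test of detection.

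The host gene was higher on every Ad-Epas1 array. Sfmbt2 stood at 7.18, 7.32 and 7.10 on Mock replicates 1, 2 and 3, and at 9.55, 9.35 and 9.64 on Ad-Epas1 replicates 1, 2 and 3. The groups lay more than 2 log2 units apart. The rise was 4.96-fold (log2 fold change 2.31, SE 0.10, 95% interval 2.07 to 2.55, adjusted p = 3.1e-04 in limma with Benjamini-Hochberg adjustment over all genes), with rank 45 among the rises of all 22180 genes. The highest Ad-Epas1 value was that of replicate 3, the array with low macrophage markers, and the log2 fold change was 2.25 without it. Over the 6 fits that each left out 1 array it ranged from 2.25 to 2.39.

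The microRNA members rose with the host in most cases. Of the 24, 19 rose, 0 fell and 5 did not pass (limma, adjusted p under 0.05). Among all genes tested, 6.57% rose, 9.75% fell and 16.3% passed in either direction at that threshold. At an unadjusted p under 0.05, 20 members were higher and 0 lower, against 3612 higher and 3602 lower of all 22180 genes. Of the 24 members, 14 rose at least 2-fold, against 1.05% of all genes. In 20 members the lowest Ad-Epas1 array was higher than the highest Mock array, as in 21.3% of all genes. The median log2 fold change was 1.18 over the members, 1.28 over the 22 inside Sfmbt2, and 0.05 over all genes. Of the 100 largest rises among all genes, 9 were members. Earlier results of these data were known when the members were chosen, and copies in the cluster resemble each other closely. The counts set beside those of all genes are therefore a description and no test. With 1 array left out, the count of members that rose was between 13 and 19: 13 members passed in each of the 6 fits, while Mir466g, Mir467c, Mir467d, Mir467e, Mir669b and Mir669h lost the call in at least 1.

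**Figure D1:**
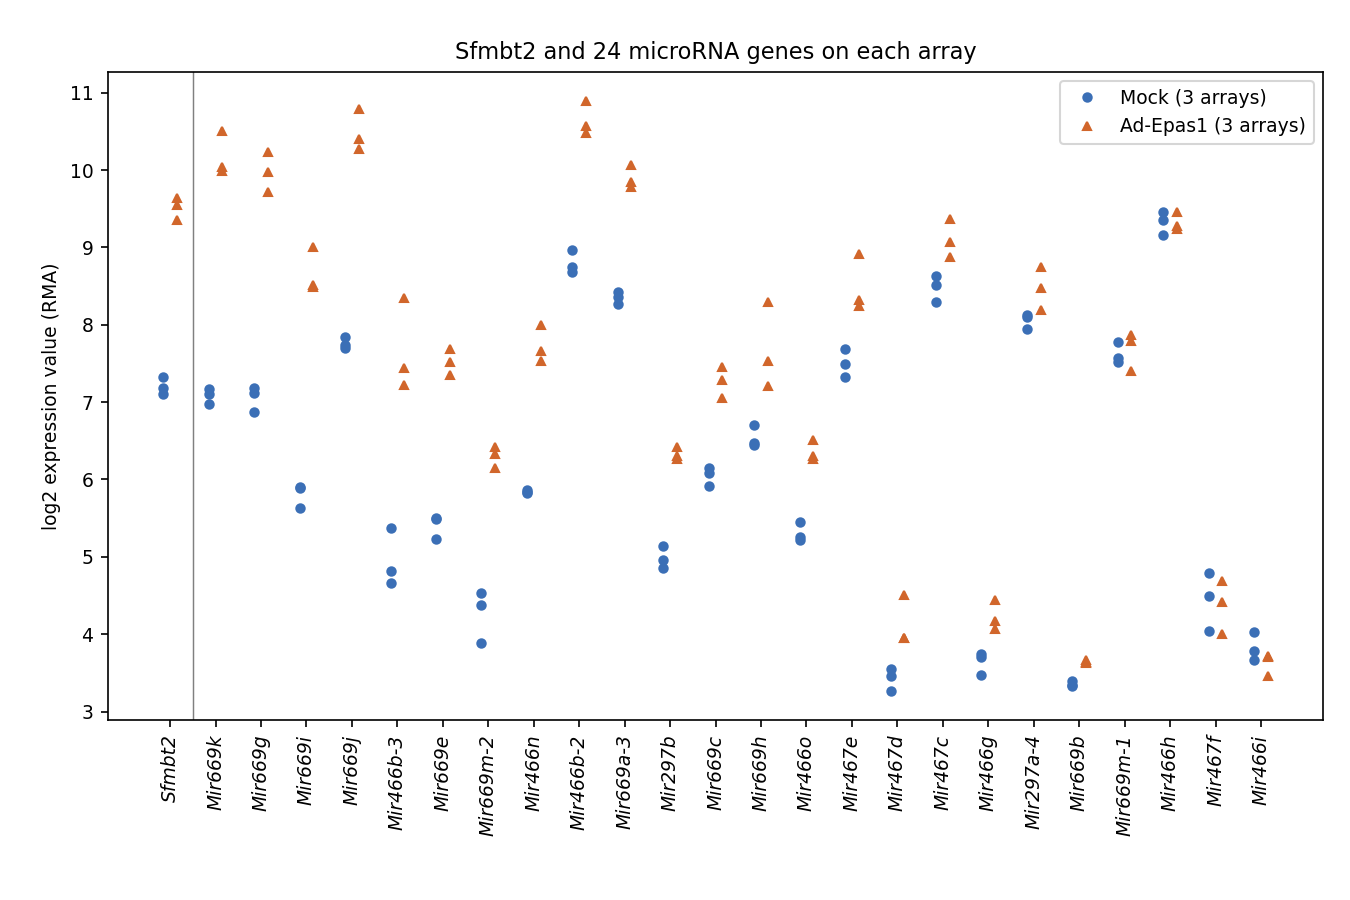
Log2 expression value of Sfmbt2 (left) and of each of the 24 members on each of the 6 arrays, with members ordered by their change; circles are Mock and triangles Ad-Epas1. The symbols separate for 20 members and overlap for Mir669m-1, Mir466h, Mir467f and Mir466i; heights of different genes are not comparable.

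The Mir669 family held the largest changes: 10 of its 11 members rose, and their family median was 2.04. Mir669k had the largest log2 fold change of all members. It stood at 7.11, 6.98 and 7.16 on the Mock arrays and at 10.04, 9.98 and 10.50 on the Ad-Epas1 arrays, each in replicate order. This was an 8.53-fold rise (log2 fold change 3.09, SE 0.15, adjusted p = 3.1e-04). Mir669g stood at 7.18, 7.12 and 6.87 in Mock and at 9.97, 9.72 and 10.23 in Ad-Epas1. Mir669j stood at 7.69, 7.74 and 7.84 in Mock and at 10.40, 10.27 and 10.79 in Ad-Epas1. In these 3 members every Ad-Epas1 array was more than 2 log2 units above every Mock array, and replicate 3 was the highest. Mir669g rose 7.57-fold and Mir669j 6.62-fold (SE 0.15 and 0.14 on the log2 scale, adjusted p = 3.5e-04 for both). Mir669i stood at 5.63, 5.90 and 5.89 in Mock and at 8.48, 8.52 and 9.001 in Ad-Epas1, a 7.26-fold rise (adjusted p = 4.0e-04).

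Other Mir669 members rose less. Mir669e went from 5.41 ± 0.16 to 7.52 ± 0.17 (mean ± SD, n = 3 each; log2 fold change 2.11, adjusted p = 4.4e-04). Mir669a-3 went from 8.35 ± 0.08 to 9.90 ± 0.15 (1.55, adjusted p = 6.0e-04), and Mir669c from 6.05 ± 0.12 to 7.27 ± 0.20 (1.21, adjusted p = 0.0023). The groups did not overlap in any of these 3. Mir669h was less even: it stood at 7.21, 7.54 and 8.29 on the Ad-Epas1 arrays against 6.70, 6.47 and 6.44 on the Mock arrays. Its rise of 1.14 (adjusted p = 0.030) lost its call (adjusted p up to 0.11) when Ad-Epas1 replicate 2 or any 1 Mock array was left out. Mir669b had the smallest rise of those called, 0.29 (adjusted p = 0.025), at levels of 3.33 to 3.40 in Mock and 3.63 to 3.67 in Ad-Epas1. Its call held without Ad-Epas1 replicate 3 and ended when any 1 of the other arrays was left out (adjusted p up to 0.11).

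Mir669m-1 and Mir669m-2, neighbours in the gene table, gave different values. Mir669m-2 stood at 3.88, 4.37 and 4.53 in Mock and at 6.42, 6.15 and 6.33 in Ad-Epas1, a rise of 2.04 (SE 0.17, adjusted p = 0.0015). Mir669m-1 stood at 7.58, 7.78 and 7.52 in Mock and at 7.79, 7.40 and 7.86 in Ad-Epas1. Its groups overlapped, with a difference of 0.06 and a 95% interval from -0.27 to 0.39 (adjusted p = 0.79). The difference between the 2 genes was not itself tested.

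In the Mir466 family 5 of 7 members rose, with a family median of 1.05. Mir466b-3 stood at 4.66, 4.82 and 5.37 in Mock and at 7.43, 7.22 and 8.34 in Ad-Epas1, a 6.57-fold rise with a wider error than the others (log2 fold change 2.72, SE 0.32, adjusted p = 0.0038). Mir466b-2 stood at 8.96, 8.68 and 8.74 in Mock and at 10.56, 10.47 and 10.89 in Ad-Epas1 (1.85, SE 0.13, adjusted p = 9.3e-04). Mir466n was tight in Mock, at 5.86, 5.84 and 5.82, and stood at 7.53, 7.66 and 8.00 in Ad-Epas1 (1.89, SE 0.12, adjusted p = 6.7e-04). All 3 separated the groups by more than 1.5 log2 units. Mir466o rose by 1.05 (adjusted p = 0.0022) and Mir466g by 0.59 (adjusted p = 0.023), the latter at levels between 3.47 and 4.44 and with its call lost (adjusted p up to 0.077) when Ad-Epas1 replicate 1 or any 1 Mock array was left out. Mir466h, inside Sfmbt2, stood at 9.16, 9.35 and 9.46 in Mock and at 9.46, 9.24 and 9.27 in Ad-Epas1. Its difference was 0.00 with a 95% interval from -0.24 to 0.25 (adjusted p = 0.99).

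Medians were lower in the Mir467 (0.67) and Mir297 (0.88) families, where 4 of 6 members rose. Of 4 Mir467 members 3 rose, and none of these reached 2-fold. Mir467e stood at 7.32, 7.68 and 7.49 in Mock and at 8.25, 8.32 and 8.92 in Ad-Epas1 (1.00, SE 0.19, adjusted p = 0.017). Mir467d (0.71, adjusted p = 0.034) and Mir467c (0.63, adjusted p = 0.032) also had groups that did not overlap. The calls of all 3 ended without any 1 Mock array (adjusted p up to 0.073, 0.13 and 0.10), those of Mir467c and Mir467d also without Ad-Epas1 replicate 1, and that of Mir467d also without Ad-Epas1 replicate 2. Mir297b stood at 4.86, 5.14 and 4.96 in Mock and at 6.42, 6.27 and 6.30 in Ad-Epas1, a 2.54-fold rise (SE 0.09 on the log2 scale, adjusted p = 9.3e-04). Mir297a-4 was at 0.41 with a 95% interval from 0.07 to 0.75, did not pass (adjusted p = 0.098), and had groups that did not overlap.

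The pair of members outside Sfmbt2, whose sequences are printed above, did not pass. Mir466i stood at 3.79, 4.03 and 3.66 in Mock and at 3.46, 3.71 and 3.71 in Ad-Epas1 (difference -0.20, 95% interval -0.49 to 0.09, adjusted p = 0.29). Mir467f stood at 4.49, 4.04 and 4.79 in Mock and at 4.00, 4.69 and 4.42 in Ad-Epas1 (difference -0.07, 95% interval -0.63 to 0.49, adjusted p = 0.86). Both groups overlapped in each, and both genes lay under the 95% mark of the receptor genes on all arrays.

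**Figure D2:**
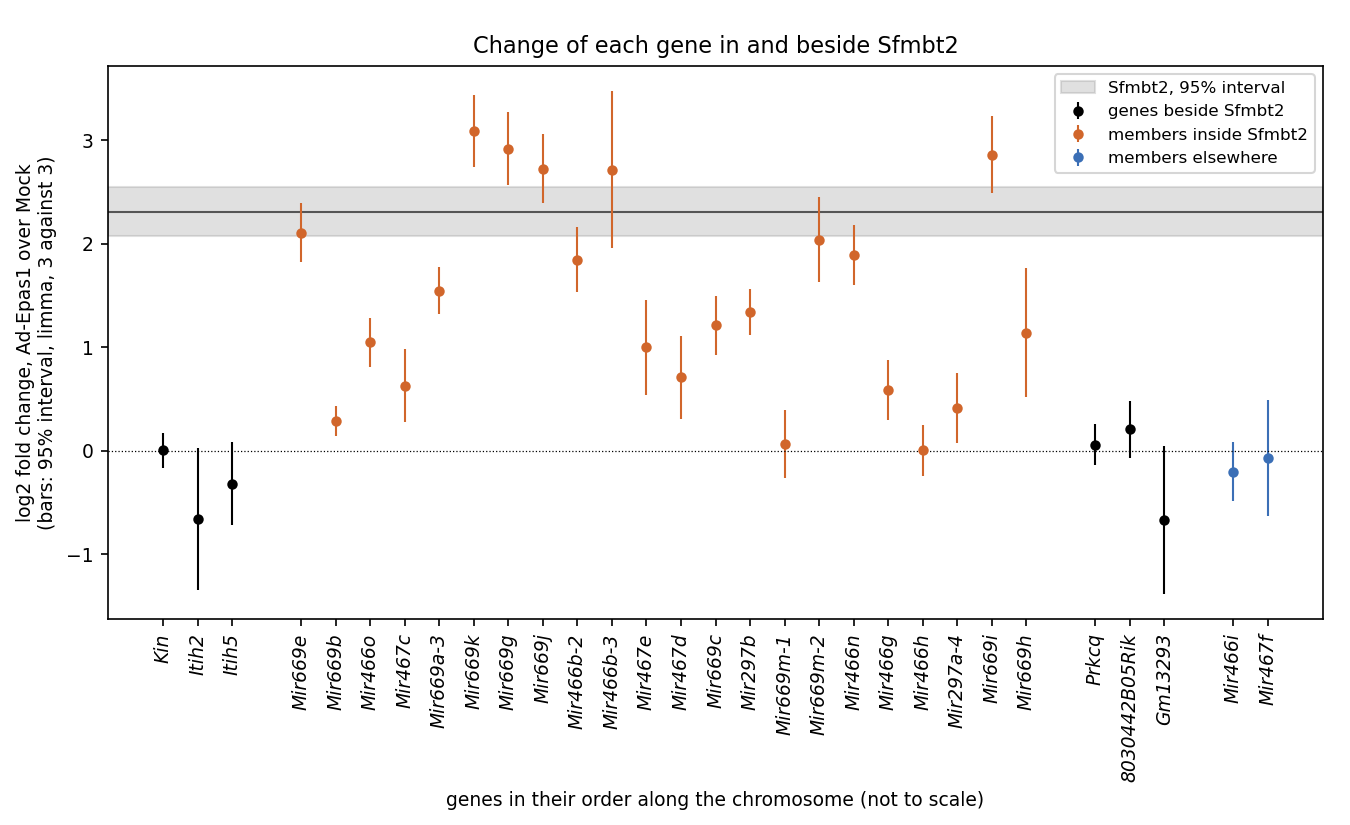
Log2 fold change of Ad-Epas1 over Mock with its 95% interval (limma, 3 against 3). Orange marks the 22 members inside Sfmbt2, ordered by 1 gene-table position per gene, with probe set positions not used. Black marks the 3 nearest measured genes on either side and blue the 2 members elsewhere. The band is the interval of Sfmbt2. Mir669k, Mir669g and Mir669j stand side by side at 3.09, 2.92 and 2.73, and the 6 neighbouring genes lie between -0.67 and 0.21.

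Along the host gene, by 1 gene-table position per gene, the changes did not run evenly. The positions of the probe sets were not used, and 4 members have several. Mir669i, member 21, is drawn at 2.86, and its other probe set gave 1.25. By probe set number, the one drawn comes before that of Mir669e, member 1. The other comes just before that of Mir669h, member 22. Whether these numbers follow the position was not tested. In the order of the gene table, Mir669k, Mir669g and Mir669j were the members 6 to 8 of 22, with log2 fold changes of 3.09, 2.92 and 2.73. Members 15, 19 and 20, which are Mir669m-1, Mir466h and Mir297a-4, did not pass, while members 16 and 17, Mir669m-2 and Mir466n, rose by 2.04 and 1.89 between them. The genes beside Sfmbt2 were read as a reference for the region, taking the 3 nearest measured on each side. They were the inter-alpha-trypsin inhibitor genes Itih5 (-0.32, adjusted p = 0.24) and Itih2 (-0.66, adjusted p = 0.17), Kin (0.01, adjusted p = 0.96), Prkcq, which encodes protein kinase C theta (0.06, adjusted p = 0.66), 8030442B05Rik (0.21, adjusted p = 0.26) and Gm13293 (-0.67, adjusted p = 0.18). None of the 6 passed in limma, and none had an unadjusted p under 0.05. Itih2 stood at 9.26 and 9.37 on Ad-Epas1 replicates 1 and 2 and at 10.40 on replicate 3, within the Mock range of 10.23 to 10.41.

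To set each member against its host, the value of Sfmbt2 was subtracted from that of the member on the same array, and the groups were compared on this difference by limma over 22179 genes. A value of 0 means that the measured log2 change of the member equalled that of Sfmbt2. Probe sets differ in their response, and the part of this in the differences was not tested. Because few genes rise as much as Sfmbt2, 99.6% of all genes differed from it and 99.5% lay below it. A member that differs is thus near the background, and the intervals tell more than the count. Every difference contains the same Sfmbt2 values, so errors are shared between genes, which limma does not allow for. The intervals may therefore be too narrow and the p-values too small. Of the members, 17 changed less than Sfmbt2, 4 changed more and 3 did not pass. Those that changed more were Mir669k (by 0.78, 95% interval 0.45 to 1.12, adjusted p = 2.8e-04), Mir669g (0.61, 0.31 to 0.91, adjusted p = 8.0e-04), Mir669i (0.55, 0.21 to 0.88, adjusted p = 0.0038) and Mir669j (0.41, 0.10 to 0.73, adjusted p = 0.014). The difference of Mir669j did not pass without Mock replicate 2 (adjusted p = 0.058) or Ad-Epas1 replicate 3 (0.053). Those that did not pass were Mir466b-3 (0.40, -0.14 to 0.95, adjusted p = 0.13), Mir669e (-0.20, -0.53 to 0.13, adjusted p = 0.20) and Mir669m-2 (-0.27, -0.66 to 0.11, adjusted p = 0.15). These intervals allow differences from the host of up to 0.95, -0.53 and -0.66. Of these, Mir466b-3 passed without Mock replicate 3 (0.019) or Ad-Epas1 replicate 1 (0.035), and Mir669m-2 without Mock replicate 1 (0.025). Among members below the host, Mir466b-2 (-0.47, adjusted p = 0.0087) did not pass without Mock replicate 1 (0.057), and Mir466n (-0.42, adjusted p = 0.013) did not pass without Mock replicate 3 (0.051) or Ad-Epas1 replicate 1 (0.096).

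**Figure D3:**
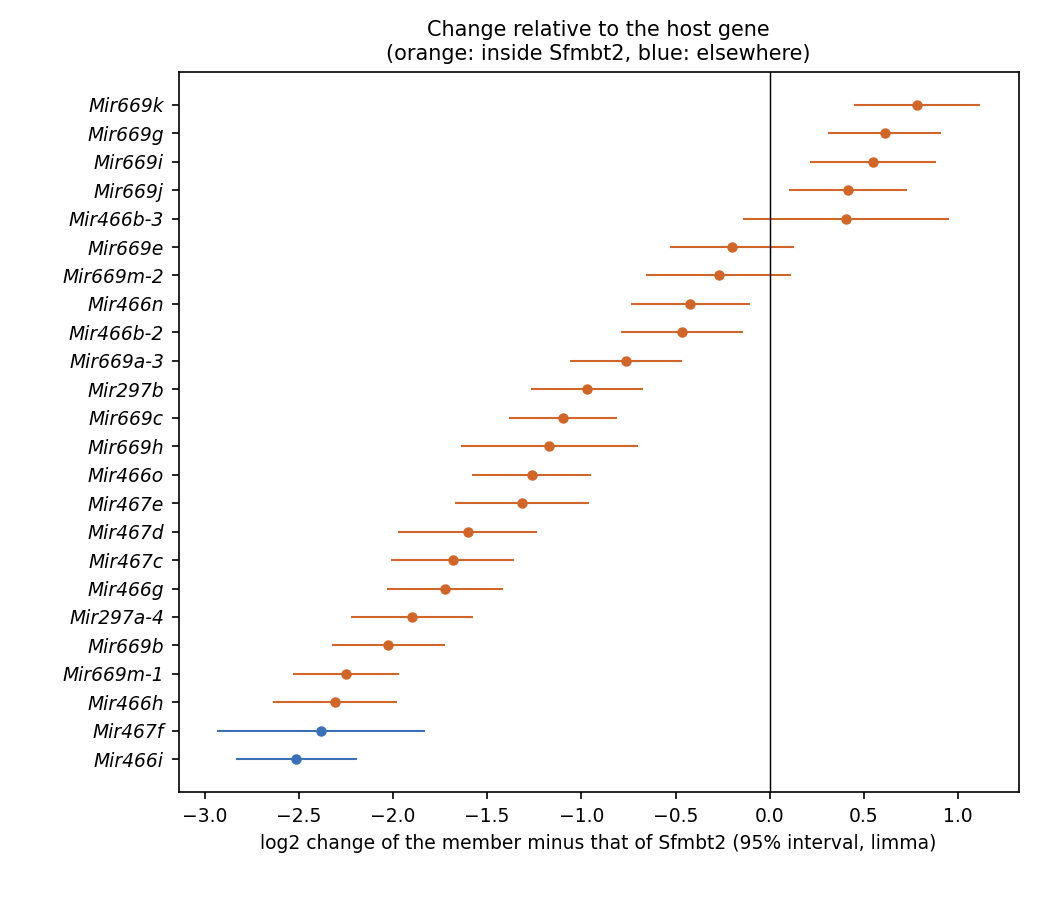
Log2 change of each member minus that of Sfmbt2 on the same arrays, with its 95% interval (limma, 3 against 3); orange members lie inside Sfmbt2 and blue ones elsewhere. The intervals of Mir669k, Mir669g, Mir669i and Mir669j lie above 0 and those of Mir466b-3, Mir669e and Mir669m-2 include 0.

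Probe sets given the same symbol allowed a check within genes. The 43 probe sets held 33 distinct sets of values, since some had the same value on every array and count as 1 measurement. No member had probe sets of opposite sign, and 38 of the 43 rose, tested separately and with identical ones each counted. Counting a gene only where all its probe sets rose in that fit, 19 of the 24 members and 6.2% of all genes rose. The 9 probe sets of Mir669k ranged from 2.95 to 3.40 in log2 fold change, so all lay above Sfmbt2. For Mir466b-2, the probe set shown gave 1.85, and the other 6, which were identical, gave 2.30 (difference from the host -0.01, 95% interval -0.31 to 0.29). Of the 5 probe sets of Mir669g, 4 gave 2.74 or 2.92 and 1 gave 1.91, the latter below the host by 0.40 (adjusted p = 0.029). The latter stood at 7.12, 7.51 and 7.55 in Mock, against 7.18, 7.12 and 6.87 for the probe set shown. The place of Mir669g above Sfmbt2 therefore differs between its probe sets. The 2 probe sets of Mir669i gave 2.86 and 1.25, on either side of the host, so its place above Sfmbt2 holds for 1 of its 2 probe sets.

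**Figure D4:**
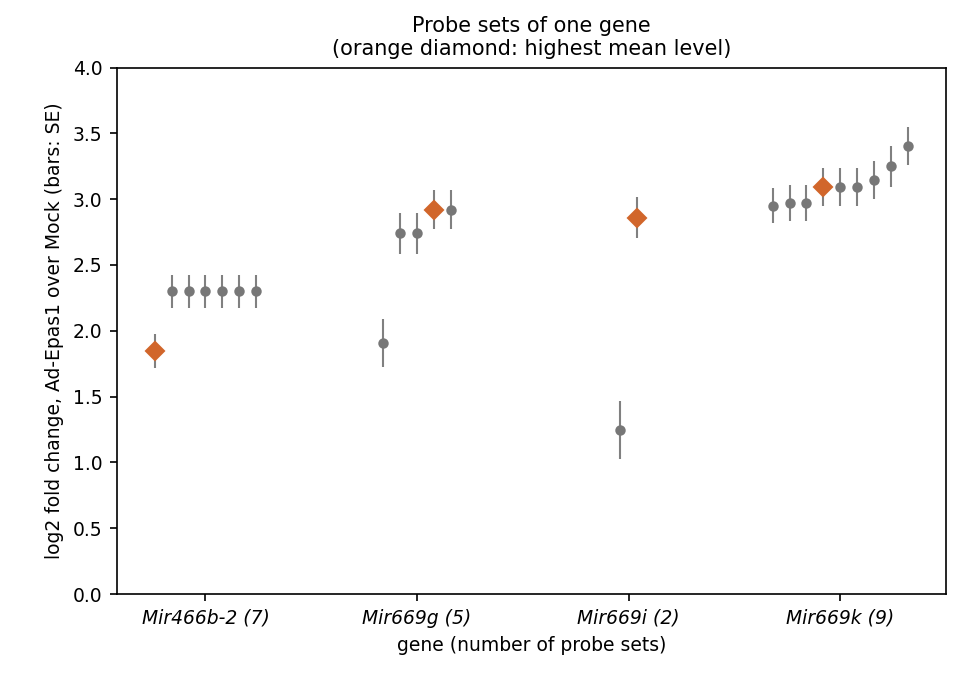
Log2 fold change of Ad-Epas1 over Mock for every probe set of the 4 members with more than 1, with bars for the moderated SE; the orange diamond is the probe set with the highest mean level. All are above 0, the 9 of Mir669k span 2.95 to 3.40, and those of Mir669i are 2.86 and 1.25.

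A further 27 probe sets carried several symbols, all of these families, and name no single gene. They held 6 distinct sets of values. In limma over all 41345 probe sets of the array, of which 3.5% rose, 5 of the 6 rose, by 1.85 to 3.15 on the log2 scale, and the other, of the Mir466 family, differed by 0.13 (adjusted p = 0.36).

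Sfmbt2 and the median over the members inside it were above the Mock mean on all 3 Ad-Epas1 arrays, while the median over the macrophage markers was near it on replicates 1 and 2 and far below it on replicate 3. On Ad-Epas1 replicates 1, 2 and 3 the median of the 22 members inside Sfmbt2 lay 1.33, 1.14 and 1.57 above the Mock mean, and Sfmbt2 lay 2.34, 2.15 and 2.44 above it. On the same arrays the median of the macrophage markers lay at -0.01, -0.08 and -4.18. Single macrophage markers differed on replicates 1 and 2 as well: Mrc1 stood at 7.96 and 7.93 there against a Mock mean of 10.31 (adjusted p = 0.0094 over all arrays), C1qa at 9.19 and 9.15 against 10.83 (adjusted p = 0.0089), and Cd14 at 11.92 and 11.40 against 10.18 (adjusted p = 0.72). The part of these cells in the result was not tested. Without replicate 3 the 19 members still rose, and the host did too (adjusted p = 1.3e-04). In these bulk samples, more cells that express Sfmbt2 and more RNA per cell cannot be told apart.

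**Figure D5:**
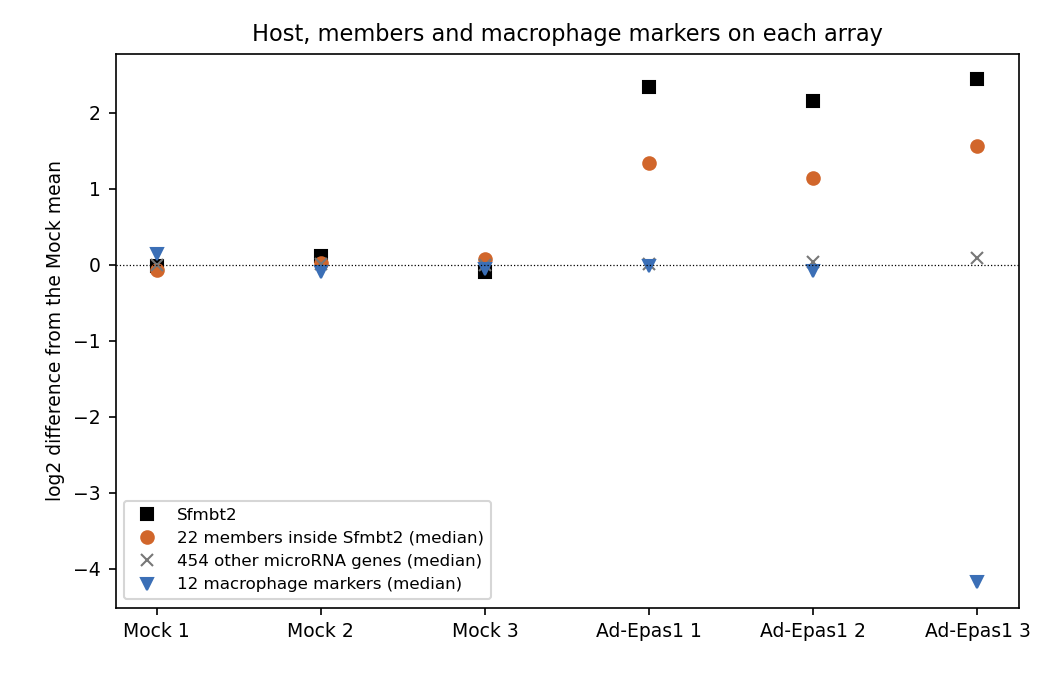
Log2 difference from the Mock mean on each of the 6 arrays for Sfmbt2 (squares) and as medians over the 22 members inside it (circles), 454 other microRNA genes (crosses) and 12 macrophage markers (triangles). Sfmbt2 and the members' median are high on all 3 Ad-Epas1 arrays, while the macrophage markers' median is at -4.18 on Ad-Epas1 replicate 3 only.

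Other microRNA genes are given for comparison. Of 454 measured outside the 4 families, 21 rose (4.63%, against 6.57% of all genes), 22 fell (4.85%, against 9.75%) and 411 did not pass. Their median log2 fold change was 0.06, and 1 was among the 100 largest rises of all genes. That gene was Mir1933, which stood at 7.82, 7.88 and 7.87 in Mock and at 9.99, 10.22 and 9.77 in Ad-Epas1 (2.14, SE 0.12, adjusted p = 4.0e-04). Mir181b-1 fell by 2.03 (SE 0.18, adjusted p = 0.0016) and Mirlet7c-1, of the let-7 family, fell by 0.84 (SE 0.11, adjusted p = 0.0059). Mir763 rose by 1.01 (adjusted p = 0.0047) and Mir290a, of a cluster known from embryonic stem cells, by 0.98 (adjusted p = 0.0067). Mir210, known as a hypoxia-induced microRNA, stood at 8.67, 8.49 and 8.33 in Mock and at 8.56, 8.67 and 8.79 in Ad-Epas1, and its difference of 0.18 (95% interval -0.08 to 0.44) did not pass (adjusted p = 0.30). With 1 array left out, between 9 and 57 of the 454 passed: leaving out Mock replicate 2 gave 9, Ad-Epas1 replicate 2 gave 11, Mock replicate 3 gave 13 and Ad-Epas1 replicate 1 gave 27.

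The machinery that makes and uses microRNAs showed small differences in both directions. Of 28 measured genes of 32 listed, 3 rose (10.7%, against 6.57% of all genes), 4 fell (14.3%, against 9.75%) and 21 did not pass, with a median of 0.03. Among nuclear and cytoplasmic cutting steps, Drosha (-0.05, adjusted p = 0.64) and Dicer1 (-0.12, adjusted p = 0.26) did not pass, nor did Xpo5, the exporter of hairpins (-0.30, adjusted p = 0.10). Prkra, which encodes a partner of Dicer, stood at 7.62, 7.68 and 7.77 in Mock and at 6.87, 6.996 and 7.22 in Ad-Epas1, and fell by 0.66 (adjusted p = 0.0097, and 0.052 without Mock replicate 3). Of the Argonaute genes, Ago1 fell by 0.50 (adjusted p = 0.018), while Ago2, named after its value was seen, rose by 0.50 (adjusted p = 0.028). The RNA-editing enzyme genes Adar (0.41, adjusted p = 0.0081) and Adarb1 (0.56, adjusted p = 0.023) rose, and Mov10, an RNA helicase gene, fell by 0.41 (adjusted p = 0.025). Khsrp, also chosen after its value was seen, encodes an RNA-binding protein of hairpin processing and fell by 0.27 (adjusted p = 0.048). With 1 array left out, the calls ended for Mov10 in 5 of 6 fits, not in that lacking Ad-Epas1 replicate 3 (highest adjusted p 0.11), for Ago1 with Mock replicate 1 or 2 or Ad-Epas1 replicate 1 or 2 left out (up to 0.080), and for Adarb1 with Mock replicate 2 or 3 or Ad-Epas1 replicate 1 or 2 left out (up to 0.098). The count of 7 became 3 with Mock replicate 1 left out, 11 with Ad-Epas1 replicate 3 left out, and 2 with any 1 of the other 4 left out. All calls in the fits with 3 or 2 were of Adar, Prkra, Ago1 or Adarb1, so Ago2 and Khsrp did not pass there.

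Relatives and partners of the Sfmbt2 protein changed little. Of 11 measured of 12 listed, 1 rose, 0 fell and 10 did not pass (limma), with a median of 0.07. This was 9.09% rising and 0% falling, against 6.57% and 9.75% of all genes. At an unadjusted p under 0.05, 2 were higher and 1 lower, against 3612 and 3602 of all 22180 genes. A list of 11 genes is too short to set these counts apart from those of all genes. Yy1, the zinc-finger partner of the protein, stood at 10.41, 10.44 and 10.56 in Mock and at 10.76, 10.83 and 10.77 in Ad-Epas1. Its rise of 0.32 (SE 0.07, adjusted p = 0.027) held without Ad-Epas1 replicate 3 and lost its call when any 1 of the other arrays was left out (adjusted p up to 0.11); the count was then 0, or 1 without Mock replicate 1, where Mbtd1 passed (0.041). The closest relative, Sfmbt1, differed by 0.21 (SE 0.13, adjusted p = 0.28) and was named after its value was seen. Mbtd1 (0.26, adjusted p = 0.090), Scml2 (-0.19, adjusted p = 0.11), L3mbtl2 (-0.19, adjusted p = 0.17) and L3mbtl4 (0.22, adjusted p = 0.18) did not pass over all arrays.

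The start of the host gene is shown because the host and most members moved together. RefSeq gives Sfmbt2 a pair of start sites in GRCm38.p6, and each sequence holds 250 bases before the start in lower case and the 50 bases from it in capitals, on the plus strand, at chr2:10370201-10370500 and chr2:10372186-10372485.
Sfmbt2 start 1: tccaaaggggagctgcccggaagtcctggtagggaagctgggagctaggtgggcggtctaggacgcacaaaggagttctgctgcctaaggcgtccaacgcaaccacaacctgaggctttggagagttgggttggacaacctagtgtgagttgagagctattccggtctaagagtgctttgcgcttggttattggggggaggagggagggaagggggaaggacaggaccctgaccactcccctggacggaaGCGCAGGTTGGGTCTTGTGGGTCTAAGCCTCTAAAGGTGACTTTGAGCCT
Sfmbt2 start 2: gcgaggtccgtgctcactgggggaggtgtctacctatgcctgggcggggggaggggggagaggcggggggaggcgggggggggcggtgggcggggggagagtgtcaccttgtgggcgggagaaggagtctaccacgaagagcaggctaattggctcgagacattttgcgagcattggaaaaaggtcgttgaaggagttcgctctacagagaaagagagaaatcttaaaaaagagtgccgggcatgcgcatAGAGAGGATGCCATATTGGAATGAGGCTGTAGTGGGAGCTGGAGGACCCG
They were searched on both strands for ACGTG and GCGTG, the core of the element that HIF proteins bind. Neither motif occurred in either window (0 matches each). Of 32851 promoter windows of the same length, 19.6% held ACGTG, 32.4% GCGTG and 43.8% at least 1 of them. No match says only that these letters are not in these 300 bases. The windows were 57.7% and 60.0% G or C with 9 and 16 CG steps, against medians of 52.7% and 7 over all windows.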

How the data were processed

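Total RNA (300 ng per array) of 3 Mock and 3 Ad-Epas1 samples was measured on Affymetrix whole-transcript arrays. The authors deposited log2 expression values for each probe set, made per the submitters' processing notes by RMA in Expression Console 1.3.1 of Affymetrix. No genome build is given for the deposited values in the sources used here. The gene table, mature sequences and promoter windows are of GRCm38.p6. RMA's quantile step hides a change shared by most genes. The number of arrays limits precision: an exact permutation test of 3 against 3 cannot go below p = 0.1.

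Of 41345 probe sets, 23521 had 1 symbol. For each gene the probe set with the highest mean was kept (22180 genes). Groups, taken from the titles, were compared by limma 3.58.1 in R 4.3.3 (lmFit and eBayes, two-sided, Benjamini-Hochberg over all genes, threshold 0.05), which was tested on simulated data. The same fit was run on values minus those of Sfmbt2. Named genes were Sfmbt2, Epas1, all members, Mir210, and up to 5 of each comparison list with the smallest p. Others named are Drosha, Dicer1 and Xpo5 and the neighbours of Sfmbt2, added by role or position. The members and lists were chosen with earlier results of these data known. Listed genes without a probe set of 1 symbol (Dgcr8, Hnrnpa1, Tnrc6b, Gemin4, Yy2, Prl3d1, Gcm1) were not analysed here. Tried as alternatives were dropping each array, a replicate block, other scalings, a level filter, another variance prior, array weights and other uses of probe sets. Columns of other samples numbered 0.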

Additional observations from a re-analysis of the deposited data

Results flagged for a closer look

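One signal lies outside the comparison of single genes. Of the 6 distinct value profiles among the 27 probe sets with several symbols of the 4 families, 5 were higher in Ad-Epas1 than in Mock. They are set apart only because they name no single gene, and they were tested in limma over all probe sets. Groups of 3 arrays are too small for a formal search for single outlying arrays. Ad-Epas1 replicate 3 did stand apart in its macrophage markers (median level 7.17), as given above.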

How the results depend on the processing

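Besides Sfmbt2, 41 genes were followed singly under the alternatives, and 0 reversed direction with a call. Ago2, Khsrp, Sfmbt1, Drosha, Dicer1, Xpo5, the neighbours of Sfmbt2 and the cell type markers were not among them. Sfmbt2 passed under all 14 (adjusted p up to 0.0050). The 24 members together had 322 values under alternatives, of which 296 kept their side of the threshold and 26 no longer passed. Whether the numbers in the titles pair the arrays could not be settled with 3 arrays per group. The correlation of deviations was 0.34, -0.19 and 0.21 for numbers 1, 2 and 3. With the replicate block 18 members rose (Mir669b, at 0.29, did not pass), 19 differed from Sfmbt2 instead of 21 (Mir669j, adjusted p = 0.067, and Mir466n, 0.063, no longer did so by the test), and 0 of the MBT and YY1 genes passed. With 1 array left out, counts ranged from 1181 to 5390 for all genes, 13 to 19 for members, 20 to 21 for members differing from Sfmbt2, 2 to 11 for processing genes, 9 to 57 for other microRNA genes and 0 to 1 for MBT and YY1 genes. Using genes above the median level only left 10 members, of which 7 rose and 10 differed from Sfmbt2, and 21 other microRNA genes passed; fewer genes were tested there. Array weights gave 7791 genes, 15 processing genes, 110 other microRNA genes and 5 MBT and YY1 genes, and a further quantile step gave 2 of the last; the cause was not tested. Genes rose and fell in the numbers 1458 and 2162, against 1732 and 1928 with arrays centred on their median and 3760 and 4031 with array weights.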
